A study of Mus musculus with 6 samples.

Results

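The 9 genes described here encode chromatin regulators: Dpf2, Mta2, Rcor2, Brms1, Crebbp, Taf6l, Men1, Kdm2a and Banf1. They were taken by gene symbol from a table of 15734 rows, and all 9 have a row. The samples are 6 polyadenylated RNA libraries from mouse cranial tissue at embryonic day 9.5, just after the neural tube closes in normal embryos, dissected above the pharyngeal arches and otic vesicles. One group is 3 mutant embryos that carry the msp3 allele of Smarcc1, the gene of the BAF subunit BAF155, on both chromosomes and are labelled as having neural tube defects. The other is 3 homozygous wild-type (WT) embryos. Both genotypes share a mixed background of C57BL/6J and 129/SvImJ, and the somite range is 19 to 21 in the sample labels and 21 to 23 in the series design. The comparison asks how loss of normal BAF155 function alters transcripts at this stage. Here it is read for regulators that work beside the BAF complex. In bulk tissue, fewer cells of a type and less RNA per cell cannot be told apart.

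Chromatin regulators act in multi-protein complexes that open, close or mark nucleosomes. The BAF complex uses ATP to slide and evict nucleosomes, with BAF155 as a core scaffold. NuRD, CoREST and Sin3 carry histone deacetylases and mostly repress, whereas CBP and the SAGA and PCAF complexes acetylate histones, and menin-MLL complexes methylate histone tails at active genes. In the embryonic neural tube BAF is needed for progenitor proliferation and for the switch to neuronal gene expression.

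Values are normalized reads and are comparable between libraries: the reads counted in a gene row were divided by a factor for the library. One read is worth 0.932, 1.01 and 0.738 normalized reads in mutants 1, 2 and 3, against 1.37, 0.968 and 1.05 in WT 1, 2 and 3. Summed over all gene rows, reads came to 63132575 to 82067578 in mutant libraries and 46170743 to 64024789 in WT libraries. Each of the 9 rows drew 3832 to 25085 reads in every library, so counting error alone gives a standard deviation (SD) of about 0.01 to 0.02 on the log2 scale. Reads without molecular identifiers are not independent molecules, and this figure covers counting error only. Row names fit levels well on chromosome 16 and in the first 10 Mb of chromosome 19, where these 9 genes lie. There, 25 of 28 genes of broadly expressed families (89.3%) had a mean of at least 1000 normalized reads, against 89 of 312 (28.5%) elsewhere. Both stretches were picked after such levels were seen. A value from outside them belongs to a row bearing a name and need not be that gene's level. One such row is Smarcc1 on chromosome 9, with 35870, 52563 and 35022 normalized reads in mutants 1, 2 and 3, against 42915, 62563 and 50066 in WT 1, 2 and 3. The genotypes overlapped, the log2 difference was -0.34 (SE 0.18, limma adjusted p = 0.495), and the labels do not say what the allele does to the transcript, so this row does not check them.

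None of the 9 chromatin regulators passed the test for a difference between genotypes. At a Benjamini-Hochberg adjusted p below 0.05 with limma, 0 of 9 were called, where 0.0225% of the 13329 tested rows were. At an unadjusted p below 0.05 it was also 0 of 9, where 10.8% of tested rows were below it. Tests on the reads called 0 of 9 with edgeR (0.015% of all rows) and 0 of 9 with DESeq2 (1.16% of all rows). Mutant and WT values overlapped in all 9, while they did not overlap in 19.1% of tested rows. The mean was higher in mutants for 6 genes and lower for 3. The median log2 difference was 0.07 over the 9 genes, against 0.02 over the 720 tested rows of both stretches and -0.00470 over all tested rows.

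**Figure D1:**
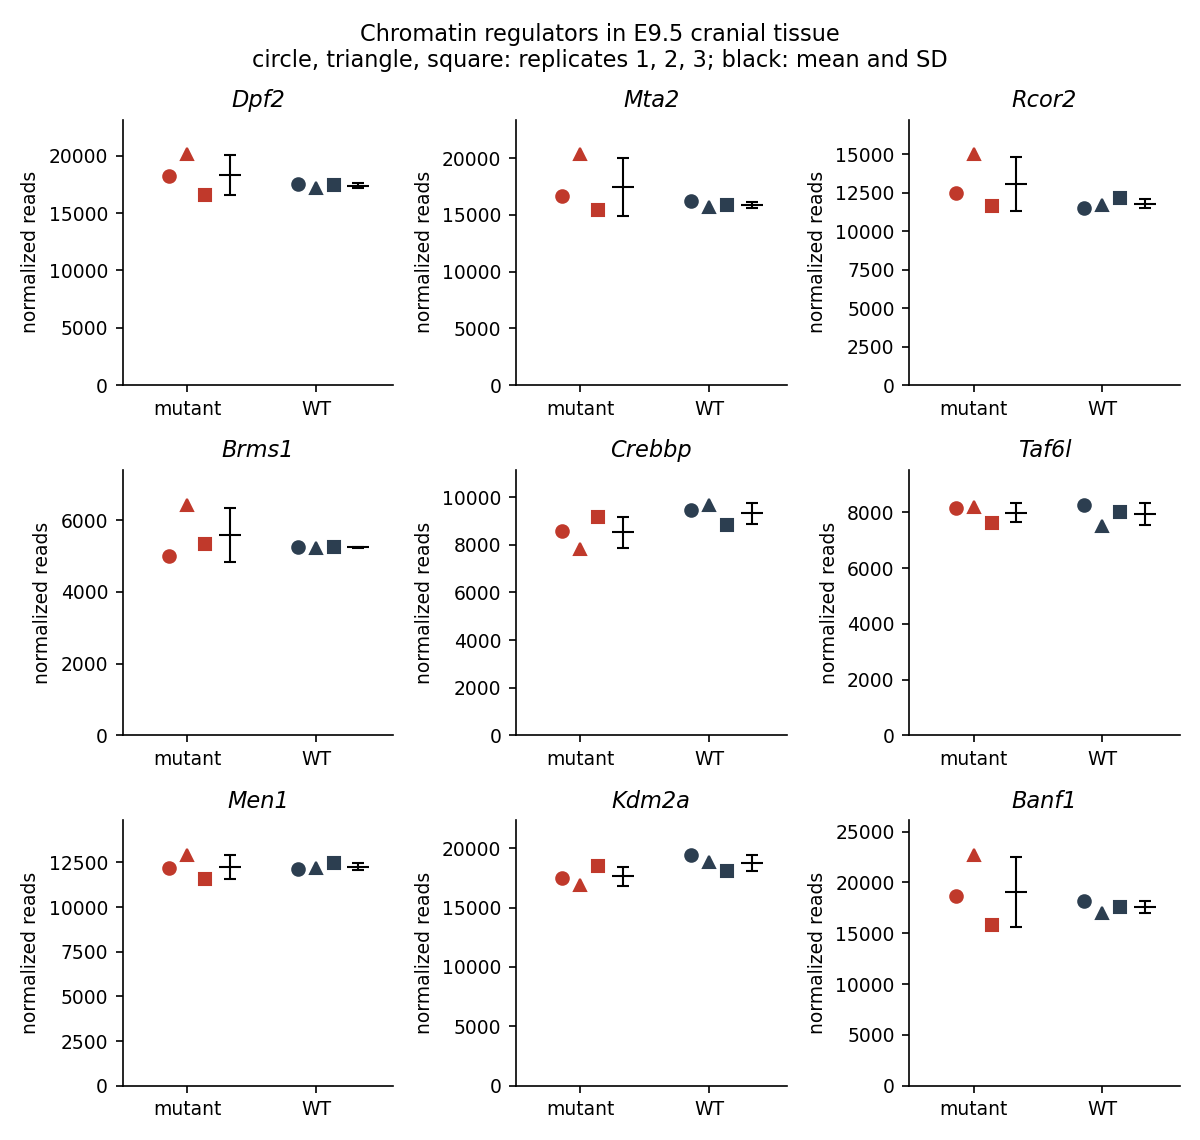
Normalized reads per library for each of the 9 chromatin regulators, mutant left of WT, with the mean and SD (n = 3) beside the points. Mutant 2, the red triangle, is the highest library for Dpf2, Mta2, Rcor2, Brms1, Men1 and Banf1 and the lowest for Crebbp and Kdm2a. By SD, the WT points lie closer together than the mutant points for all genes but Taf6l, only slightly so for Kdm2a.

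Dpf2 is the member of the BAF complex itself. It encodes a double PHD finger protein that reads modified histone H3 tails. It had 18266, 20131 and 16595 normalized reads in mutants 1, 2 and 3, against 17541, 17177 and 17479 in WT 1, 2 and 3. The WT libraries lay within a narrow band, with mutants 1 and 2 above it and mutant 3 below it. Dpf2 averaged 18331 ± 1769 in mutants and 17399 ± 195 in WT (SD, n = 3 each), so that the log2 difference was 0.07 (SE 0.074, limma adjusted p = 0.715). Its 95% interval of -0.0988 to 0.24 corresponds to 0.934 to 1.18 times the WT level. The log2 difference was 0.00104 without mutant 2 and 0.14 without mutant 3. A two-sided exact permutation test over the 6 libraries returned p = 0.5. With 3 libraries in each genotype it cannot go below 0.1. Over the 9 genes that test gave 0.2 to 1.

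Sequence upstream of the start is shown for Dpf2, for Mta2 and Rcor2, which had high values in the same library as Dpf2, and for Crebbp, which had its lowest value there. Each run is the 250 bases before the RefSeq start, 5′ to 3′ on the gene's strand. Capitals mark matches on either strand to any of 5 motifs. The letters searched were GGGCGG for the Sp factor box, CCAAT for the box bound by nuclear factor Y, CCGGAAG for ETS factors, TATAAA for the TATA box and AAGATGGC for the factor YY1.
Dpf2, GRCm38.p6 chr19:5912872-5913121, minus strand: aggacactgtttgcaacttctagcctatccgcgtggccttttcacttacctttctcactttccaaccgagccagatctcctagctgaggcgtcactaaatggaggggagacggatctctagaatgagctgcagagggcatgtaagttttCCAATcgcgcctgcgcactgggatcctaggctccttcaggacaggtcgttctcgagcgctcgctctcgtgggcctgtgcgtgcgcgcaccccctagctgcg
Mta2, GRCm38.p6 chr19:8941670-8941919, plus strand: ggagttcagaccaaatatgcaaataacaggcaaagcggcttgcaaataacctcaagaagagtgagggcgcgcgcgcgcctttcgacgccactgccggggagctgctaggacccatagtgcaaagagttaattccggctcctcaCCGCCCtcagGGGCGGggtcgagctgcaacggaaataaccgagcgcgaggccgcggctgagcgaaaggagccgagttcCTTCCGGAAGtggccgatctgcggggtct
Rcor2, GRCm38.p6 chr19:7267144-7267393, plus strand: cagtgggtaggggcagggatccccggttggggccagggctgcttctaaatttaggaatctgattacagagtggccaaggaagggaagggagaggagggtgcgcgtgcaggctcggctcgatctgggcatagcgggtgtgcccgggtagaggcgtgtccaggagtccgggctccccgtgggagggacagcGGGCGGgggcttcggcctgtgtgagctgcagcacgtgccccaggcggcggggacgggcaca
Crebbp, GRCm38.p6 chr16:4213405-4213654, minus strand: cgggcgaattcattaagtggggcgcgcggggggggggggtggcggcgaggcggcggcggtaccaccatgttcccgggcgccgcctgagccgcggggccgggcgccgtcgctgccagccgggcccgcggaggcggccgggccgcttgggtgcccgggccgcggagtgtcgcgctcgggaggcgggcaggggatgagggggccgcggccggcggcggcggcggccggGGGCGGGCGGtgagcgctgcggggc
The Dpf2 window held 17 CpG dinucleotides and 1 CCAAT match. The Mta2 window held 24 CpG, 2 Sp boxes and 2 overlapping ETS matches that form a palindrome. Rcor2 held 17 CpG and 1 Sp box, and Crebbp held 44 CpG and 2 overlapping Sp boxes. Over 27025 RefSeq promoters the median was 6 CpG (quartiles 2 and 16). An Sp box was in 32.9% of them, the CCAAT letters in 34.5%, the ETS letters in 7.05%, the TATA letters in 13.0% and the YY1 letters in 1.59%. No window of these 4 held the TATA or the YY1 letters. No motif match was shared by all 4 windows. Banf1 and Men1, whose windows are not shown, were also highest in mutant 2. The CCAAT letters were in every Men1 entry, in entry 1 but not entry 2 of Banf1, and in Taf6l.

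Among subunits of the deacetylase complexes, Mta2 and Rcor2 had the largest mean differences on the higher side of the 9 genes, and neither passed. Mta2, a scaffold that holds the deacetylases in NuRD, had 16640, 20333 and 15384 normalized reads in mutants 1, 2 and 3, against 16178, 15646 and 15872 in WT 1, 2 and 3. Mutant 2 alone stood well above the WT band, mutant 1 stood slightly above it and mutant 3 below it. The log2 difference was 0.12 with a standard error of 0.097 (limma adjusted p = 0.62, 95% interval -0.0959 to 0.34). Without mutant 2 it was 0.00925, and without mutant 3 it was 0.21.

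Rcor2 encodes a CoREST family protein that links the demethylase LSD1 to histone deacetylases. It had 12506, 15008 and 11637 normalized reads in mutants 1, 2 and 3, against 11526, 11728 and 12136 in WT 1, 2 and 3. Mutants 1 and 2 exceeded every WT library, and mutant 3 lay among them. The log2 difference was 0.14 with a standard error of 0.092 (limma adjusted p = 0.573), and it was 0.03 without mutant 2 and 0.22 without mutant 3.

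Brms1, which binds the Sin3 deacetylase complex and was first known as a suppressor of metastasis, had 4997, 6432 and 5325 normalized reads in mutants 1, 2 and 3, against 5259, 5226 and 5235 in WT 1, 2 and 3. Mutant 2 was high, while mutants 1 and 3 lay on either side of the WT libraries. The SD of its WT log2 values was 0.00467, below the counting SD of 0.021, so that the closeness of these 3 libraries is tighter than their depth can resolve. The log2 difference was 0.08 with a standard error of 0.095 (limma adjusted p = 0.736) and turned to -0.0226 without mutant 2. Nearly all exon bases of Brms1 (1383 of 1388) are also annotated to a second gene model on the same strand, AC124502.3, so reads could be split or shared there.

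The acetyltransferase group held the lowest difference of the 9. Crebbp encodes CBP, a histone acetyltransferase and co-activator. It had 8583, 7832 and 9145 normalized reads in mutants 1, 2 and 3, against 9461, 9684 and 8825 in WT 1, 2 and 3. Mutants 1 and 2 were below every WT library and mutant 3 was above WT 3. Crebbp averaged 8520 ± 659 in mutants and 9323 ± 446 in WT (SD, n = 3 each), so that the log2 difference was -0.13 (SE 0.075). Its limma adjusted p of 0.533 was the smallest of the 9. Its 95% interval, -0.30 to 0.0398, corresponds to 0.81 to 1.03 times the WT level. The value was -0.0725 without mutant 2 and -0.18 without mutant 3.

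Taf6l, a histone-fold subunit of the SAGA and PCAF acetyltransferase complexes, had 8174, 8200 and 7625 normalized reads in mutants 1, 2 and 3, against 8286, 7531 and 8009 in WT 1, 2 and 3. The ranges of both genotypes nearly coincided. The log2 difference was 0.01 (limma adjusted p = 0.956) and changed sign without mutant 1, mutant 2 or WT 2.

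Men1 and Kdm2a act on histone methylation. Men1 encodes menin, a tumour suppressor that anchors MLL methyltransferases, and had 12181, 12922 and 11563 normalized reads in mutants 1, 2 and 3, against 12131, 12162 and 12470 in WT 1, 2 and 3. Mutant 2 was the highest library and mutant 3 the lowest, with a log2 difference of -0.00515 (limma adjusted p = 0.977) and a 95% interval of -0.15 to 0.13. Kdm2a, a histone demethylase with a zinc finger that binds unmethylated CpG, had 17490, 16912 and 18512 normalized reads in mutants 1, 2 and 3, against 19453, 18818 and 18063 in WT 1, 2 and 3. As for Crebbp, mutants 1 and 2 were below every WT library and mutant 3 was above WT 3. The log2 difference of Kdm2a was -0.0907 with a standard error of 0.06 (limma adjusted p = 0.567), and -0.0608 without mutant 2.

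Banf1 encodes barrier-to-autointegration factor, a DNA-bridging protein of the nuclear lamina that shares its abbreviation with the BAF complex but is no subunit of it. It had 18643, 22714 and 15832 normalized reads in mutants 1, 2 and 3, against 18209, 16970 and 17613 in WT 1, 2 and 3. It had the widest mutant spread of the 9, with mutant 2 highest and mutant 3 lowest of all libraries. The log2 difference was 0.10 with a standard error of 0.12 (limma adjusted p = 0.739), -0.0340 without mutant 2 and 0.23 without mutant 3. Banf1 shares 428 exon bases with Eif1ad on the opposite strand, so reads of this pair cannot be told apart there, since the use of strand is not given in the sources used here. Eif1ad has its own row, at a mean of 11860 normalized reads.

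**Figure D2:**
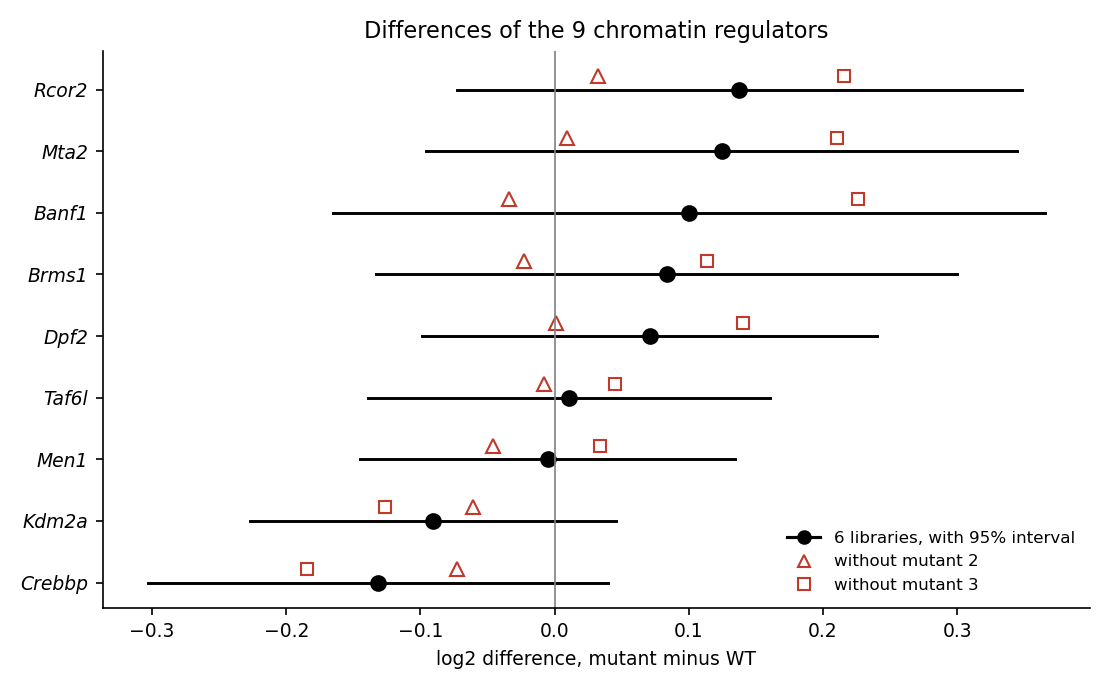
Log2 difference, mutant minus WT, of each of the 9 genes (black circle, 6 libraries) with its 95% interval from limma, and the value without mutant 2 (open triangle) or without mutant 3 (open square). Every interval spans 0. All triangles lie between -0.0725 and 0.03, and every square lies farther from 0 than the triangle of the same gene except for Men1.

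Per length, Banf1 was the most abundant of the 9 transcripts and Crebbp the least. Levels are given as normalized reads per kilobase (kb) of the longest protein-coding transcript in GENCODE M21, which may not be the annotation of the authors. Banf1 (1.26 kb) averaged 15117 ± 2744 in mutants and 13955 ± 492 in WT (SD, n = 3 each). Dpf2 (3.31 kb) averaged 5531 ± 534 in mutants and 5250 ± 58.8 in WT, and Mta2 (3.13 kb) averaged 5567 ± 821 in mutants and 5071 ± 85.2 in WT. In mutants the gap between Dpf2 and Mta2 was smaller than either SD, while in WT Dpf2 was above Mta2 by more than both SDs together. Below them over the 6 libraries came Rcor2 at 4401 ± 467, Men1 at 4114 ± 150, Brms1 at 3899 ± 369 and Taf6l at 3584 ± 143 (SD, n = 6 each). Neighbours in this order differed by less than their summed SDs. Kdm2a (8.58 kb) stood at 2123 ± 107 and Crebbp (10.8 kb) at 825 ± 61.8 (SD, n = 6 each), apart from the others and from each other.

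The libraries of a genotype differed more among mutants than among WT. The SD of log2 values was larger in mutants for 8 of the 9 genes, all but Taf6l, with medians of 0.14 in mutants and 0.0379 in WT. This was also common in other rows: it held for 358 of the 444 rows of both stretches with a mean of at least 1000 (80.6%), with medians of 0.12 and 0.0554, and for 68.8% of all tested rows. Among the 9, the SD was 0.26 in mutants and 0.0509 in WT for Banf1, 0.21 and 0.0242 for Mta2, and 0.14 and 0.0162 for Dpf2. For Kdm2a it was 0.0659 in mutants and 0.0536 in WT.

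**Figure D3:**
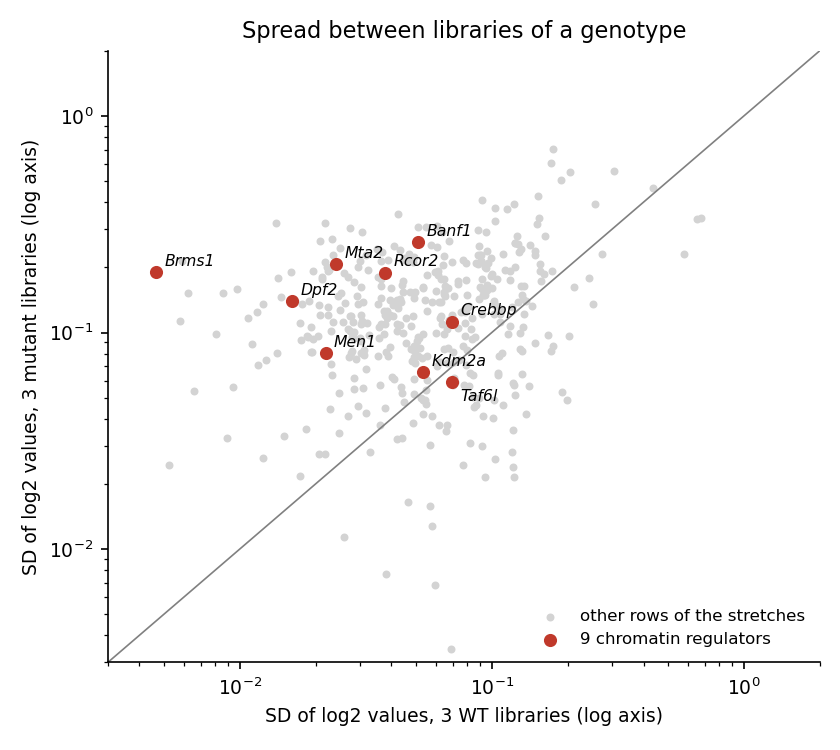
SD of log2 values over the 3 mutant libraries against the SD over the 3 WT libraries, both on log axes, for the 9 genes (red) and the other rows of both stretches with a mean of at least 1000 and an annotated transcript (grey). The line marks equal SDs, 8 of the 9 genes lie above it, and 2 rows fall outside the axes.

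Mutant 2 was most often the extreme library. It was the highest of the 6 libraries for 6 of the 9 genes and the lowest for Crebbp and Kdm2a. It was the highest or the lowest library in 71.2% of the 444 rows named above. Against the WT mean, its log2 value was 0.37 higher for Banf1, 0.36 for Mta2, 0.35 for Rcor2, 0.30 for Brms1 and 0.21 for Dpf2. The same value was -0.25 for Crebbp and -0.15 for Kdm2a. Mutant 3 lay on the other side of the WT mean from mutant 2 in 6 of the 9 genes, by at most 0.15, as was so for 46.8% of the 444 rows. The ratio of Crebbp to Dpf2 within a library, which no scaling factor can change, was 0.47, 0.389 and 0.551 in mutants 1, 2 and 3, against 0.539, 0.564 and 0.505 in WT 1, 2 and 3.

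Transcript length moved with the position of mutant 2. Crebbp and Kdm2a have the longest transcripts of the 9, and Banf1 and Brms1 (1.39 kb) the shortest. Across 430 rows of both stretches with a mean of at least 1000 and an annotated transcript, the log2 difference of mutant 2 from the WT mean had a Spearman correlation with transcript length of -0.63. That value was -0.22 for mutant 1 and 0.0215 for mutant 3, and for WT libraries set against the other WT libraries it was -0.11, 0.22 and -0.0929 for WT 1, 2 and 3. Rows are not independent, and the mutants share the WT mean. In the 144 rows with transcripts of 0.476 to 2.42 kb the median difference of mutant 2 was 0.23, in 142 of 2.44 to 4.21 kb it was 0.0726, and in 144 of 4.22 to 18.1 kb it was -0.11. The cause of this trend was not tested.

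**Figure D4:**
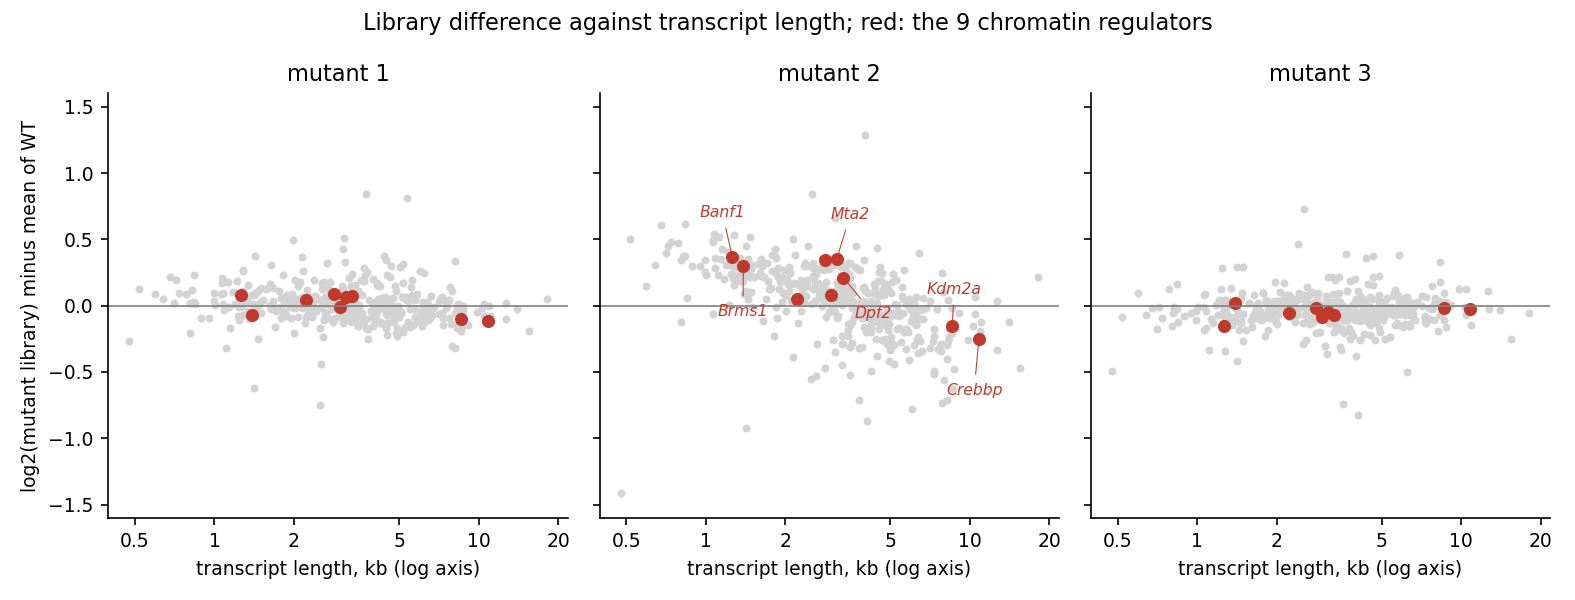
Log2 difference of each mutant library from the WT mean against transcript length (log axis, kb), for the 9 genes (red) and the other rows of both stretches with a mean of at least 1000 (grey); 1 row is outside the axis. Mutant 2 runs downward with length, with Banf1 at 0.37 and Crebbp at -0.25, while mutants 1 and 3 stay flatter.

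When a linear trend on log2 length was removed from each library, an alternative chosen after seeing the data, the genes differed in how much of the deviation of mutant 2 remained. The difference of mutant 2 from the WT mean became 0.0195 for Crebbp (-0.25 before) and 0.0695 for Kdm2a (-0.15 before). It became 0.18 for Banf1 (0.37 before) and 0.12 for Brms1 (0.30 before). Mta2 at 0.36, Rcor2 at 0.33 and Dpf2 at 0.23 changed little. These are transcripts of middle length, from 2.82 to 3.31 kb, for which the correction is small by construction. For the long Crebbp and Kdm2a and the short Banf1 and Brms1 it is large by construction. This contrast between genes is therefore largely set by their length. The genotype difference of Crebbp was then -0.0334 (limma adjusted p = 0.845) and that of Kdm2a -0.0105 (adjusted p = 0.955), against -0.13 and -0.0907 without the correction.

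Over the 6 libraries Dpf2 varied together with Banf1, Mta2 and Rcor2 and opposite to Crebbp. Dpf2 had a Pearson r of log2 values of 0.99 with Banf1, 0.97 with Mta2 and 0.95 with Rcor2, and of -0.87 with Crebbp. These values share the same 6 libraries and their scaling. Crebbp and Kdm2a had an r of 0.94. Without mutant 2, over 5 libraries, Dpf2 kept an r of 0.96 with Banf1 and 0.97 with Mta2, but had 0.74 with Rcor2, -0.54 with Crebbp and -0.89 with Brms1 (0.76 with all 6). The value for Crebbp with Kdm2a was then 0.89. The log2 SD of Dpf2 in WT was only 0.0162, while mutants 1 and 3 differed from its WT mean by 0.0703 and -0.0682. The r values of Dpf2 over 5 libraries therefore rest mainly on mutants 1 and 3. By the same measure over all 6 libraries, the rows of both stretches most like Dpf2 were Cdip1 and Banf1 (r = 0.99 each). Those most like Crebbp were A930001C03Rik (0.99) and Gm608 (0.98). Those most like Mta2 were Pigx and Sod1, and those most like Rcor2 were Tmem134 and Rogdi. Kdm2a was most like C330027C09Rik and D16Ertd472e, Men1 like Tnk2 and Adprh, Brms1 like Pmm2 and AI462493, Taf6l like Alg1 and Slc15a2, and Banf1 like Cdip1 and Dpf2, with r from 0.94 for Slc15a2 to 0.995 for Alg1. All these rows were picked for their high r, so its size is no result. AI462493 had a mean of only 34.2 normalized reads, and its r with Brms1 was 0.55 without mutant 2. The log2 SD of Slc15a2 in WT was 2.2.

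Partners of the 9 genes were read from rows that bear their names. Each list holds 1 of the 9 genes, which is counted with its partners. The other tested rows of each list lie outside both stretches. BAF and PBAF subunits had 17 tested rows of 27 genes listed, of which 0 passed with limma and 3 had an unadjusted p below 0.05. Of these rows 2 had a higher and 15 a lower mean in mutants, with a median log2 difference of -0.11. The lower rows include Smarcc1 itself. Over all tested rows the median was -0.00470, and names of rows outside both stretches need not fit their levels. NuRD had 12 rows (5 higher, 7 lower, median -0.0588), 3 of them with an unadjusted p below 0.05. CoREST had 8 (5 higher, 3 lower, median 0.0484), 0 of them below it, and Sin3 had 12 (7 higher, 5 lower, median 0.0412), 1 below it. SAGA and PCAF had 16 rows (9 higher, 7 lower, median 0.00841), 1 below it, and CBP and p300 had 4 (1 higher, 3 lower, median -0.0838), 0 below it. Menin and MLL had 6 rows (3 higher, 3 lower, median -0.000230), 2 below it. KDM2 and its Polycomb partners had 8 (2 higher, 6 lower, median -0.0598), 4 below it. The BANF1 and nuclear lamina list had 7 (2 higher, 5 lower, median -0.0807), 1 below it. No row of any of these lists passed at an adjusted p below 0.05 with limma. Together with the chromatin genes of the next paragraph they had 103 different rows, the 9 genes included, since some genes stand in several lists. Of these rows 14 (13.6%) had an unadjusted p below 0.05 with limma, against 10.8% of all tested rows. All 14 were among the 75 rows outside both stretches, so the share among those 75 was larger than 13.6%. Names there need not fit levels. DESeq2 on the reads called 1 of the 103 (0.971%, against 1.16% of all tested rows), also among those 75. That row is named Gatad2b, a NuRD subunit, on chromosome 3. It had 348, 555 and 263 normalized reads in mutants 1, 2 and 3, against 790, 876 and 919 in WT 1, 2 and 3, with no overlap. Its log2 difference was -1.21 (SE 0.24). Its adjusted p was 0.28 with limma, 0.000279 with DESeq2 and 0.0107 with limma without mutant 2. It was named after its values were seen, and it lies outside the stretches in which names fit levels.

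Among other chromatin genes inside both stretches, 0 of 19 passed and 0 had an unadjusted p below 0.05 with limma. Of these, 8 had a higher and 11 a lower mean in mutants, with a median log2 difference of -0.0229. The smallest p belonged to Nrip1, a nuclear receptor co-repressor, with 7070, 4696 and 7241 normalized reads in mutants 1, 2 and 3, against 8071, 7678 and 7662 in WT 1, 2 and 3. All mutants lay below all WT libraries, mutant 2 by far the most. Its log2 difference was -0.33 with a standard error of 0.15 (limma adjusted p = 0.47), and -0.12 without mutant 2. Bbx, an HMG-box protein, came next with a log2 difference of -0.21 (limma adjusted p = 0.529) and -0.0815 without mutant 2. Transcripts of Nrip1 (7868 bases) and Bbx (8743 bases) belong to the longest class above, where the median difference of mutant 2 from the WT mean was -0.11. The part of length in their values was not tested. The genotypes did not overlap in 3 of the 19 genes, where 19.1% of all tested rows did not overlap: Nrip1, and, named after their values were seen, the acetyltransferase gene Kat5 at a log2 difference of 0.0966 and the topoisomerase gene Top3b at 0.096.

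**Figure D5:**
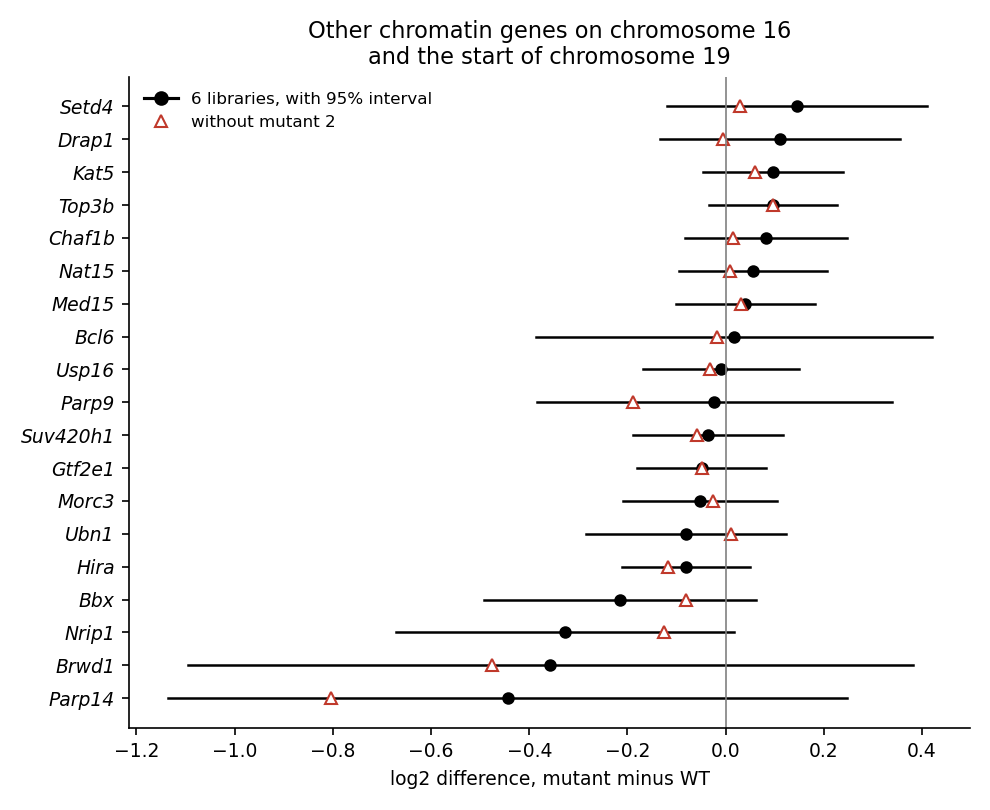
Log2 difference, mutant minus WT, of the 19 other chromatin genes of both stretches (black circle) with its 95% interval from limma, and the value without mutant 2 (open triangle). All 19 intervals span 0, and Nrip1 lies at -0.33 with all libraries and at -0.12 without mutant 2.

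Of 16 cell type markers inside both stretches, 0 passed with limma, where 0.0225% of all tested rows did. At an unadjusted p below 0.05 it was 3 of 16 (18.8%, against 10.8% of all tested rows), namely Cldn5, Gap43 and Tbx1. Mutant and WT values did not overlap in 3 of 16 (18.8%, against 19.1% of all tested rows), namely Cldn5, Gap43 and Ncam2. These genes are named after their values were seen.

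The 7 neural markers summed to 27171, 27281 and 27746 normalized reads in mutants 1, 2 and 3, against 27500, 25828 and 27190 in WT 1, 2 and 3, and their members did not move together. Log2 differences were 0.30 for Gap43 (limma adjusted p = 0.331), 0.38 for Olig2, 0.0481 for Hes1, -0.14 for Robo1 and -0.0930 for Robo2. The low rows Ncam2 and Olig1, each under 100 normalized reads, had 0.58 and 0.42. Mutant 2 was the highest library for Hes1, Olig2 and Olig1 and the lowest for Robo1 and Robo2. Transcript length is 1468 bases for Hes1, 2530 for Olig2, 7563 for Robo1 and 8591 for Robo2. Olig2 was high in mutant 3 as well, with 706, 1713 and 1586 normalized reads in mutants 1, 2 and 3, against 832, 1030 and 1021 in WT 1, 2 and 3.

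Markers of other cell types in the dissected tissue were detected in every library, and no marker was at 0. The endothelial markers Cldn5 and Erg summed to 1627, 1278 and 1865 in mutants 1, 2 and 3, against 2557, 2190 and 2552 in WT 1, 2 and 3. Nearly all of that sum is Cldn5, whose groups did not overlap (log2 difference -0.65, limma adjusted p = 0.318), while those of Erg overlapped (-0.29, and 0.0535 without mutant 2). The pharyngeal and neural crest sum was 2649 to 3093 in mutants, against 2950 to 3958 in WT, with log2 differences of -0.53 for Tbx1 (limma adjusted p = 0.396) and 0.0620 for Snai2. The blood cell sum, mostly Fermt3, was 2602 to 3111 in mutants, against 2488 to 2911 in WT, with log2 differences of -0.48 for Hcls1 and 0.14 for Fermt3. Trp63, Ovol1 and Cldn1, of surface epithelium, summed to 1625 to 2680 in mutants, with the top value in mutant 1, against 1547 to 1993 in WT. The part of cell composition in the values of the 9 genes was not tested.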

How the data were processed

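The deposited table holds, for each named gene and embryo, a signal that the authors normalized. Every value was a whole multiple of 1 step per library, so whole reads were recovered for 100% of values (tolerance 0.001 reads). The submitters' processing notes name CASAVA 1.7, bedtools and mm9. The counting rule, strand and annotation: not given in the sources used here. A further 17 columns were not used. Rows were matched to RefSeq genes of GRCm38, 14324 by symbol and 1288 by an older symbol, with 122 unmatched; its chromosomes and order were used, and no coordinate was converted.

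Genotypes were compared with limma (3.58.1, trended prior; R 4.3.3) on log2(value + 1). Rows with a mean of 10 or more entered (13329), and two-sided p-values were adjusted over all of them by Benjamini-Hochberg, with a threshold of 0.05. On the recovered reads edgeR 4.0.16 (quasi-likelihood, TMM) and DESeq2 1.42.0 were run over the same rows. Each fit was tested on simulated data. Python 3.11.15, numpy 2.4.6, pandas 2.3.3, scipy 1.17.1 and matplotlib 3.10.9 were used. The 9 genes, the gene lists and both stretches were chosen with earlier results of these data known. The naming rule takes all 9 genes, list rows that pass or else the 2 of smallest p inside both stretches, and the 2 rows most like each gene.

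Labels describe separate embryos. No library was a repeat of another: chi-square over degrees of freedom between replicates was 11.8 to 96.5. Some rows (216) share all read counts with another row, none of them among the 9 genes. Sequences are from RefSeq, GRCm38.p6; 7 of the 9 genes had a promoter entry.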

Additional observations from a re-analysis of the deposited data

How the results depend on the processing

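None of the 9 genes passed in any of the 20 alternatives, planned or added, for which a fit was made. The signs of Dpf2, Mta2, Rcor2, Crebbp and Kdm2a held in all 20. Those of Dpf2 and Mta2 rest largely on mutant 2, without which the log2 differences were 0.00104 and 0.00925. Signs turned, with no call involved, for Men1 with quantile normalization (0.00113), equal medians (0.0117), edgeR (0.00364) and DESeq2 (0.0014), for Taf6l with equal medians of the stretches (-0.0416), and for Brms1 with array quality weights (-0.0137). With the length trend removed Taf6l had -0.0149. With that trend removed and mutant 2 left out, an added setting like it, it had -0.0107, Brms1 -0.0303 and Banf1 -0.0426. Leaving out each library in turn gave log2 differences from -0.0461 to 0.0341 for Men1, -0.0226 to 0.159 for Brms1, -0.0270 to 0.0449 for Taf6l and -0.0340 to 0.226 for Banf1. Over all rows the count of 3 calls became 5 with quantile normalization, 5 with equal medians, 0 with no trend, 60 with array quality weights, 155 with DESeq2 and 14 with the length trend removed and mutant 2 left out. It was 0 to 14 without single libraries (0 without WT 2 or WT 3, 14 without mutant 1 or mutant 2). Of the list rows 1, Gatad2b, passed with array quality weights, with DESeq2 and with the length trend removed and mutant 2 left out, and 0 to 1 did without single libraries (1 without mutant 2). The cause was not tested. Same-numbered libraries did not deviate together (r = -0.0448, -0.000253 and 0.0585). The labels give no pairing, and these correlations cannot exclude one. With the replicate block 3 rows and 0 of the 9 genes passed. With 3 embryos a genotype, the intervals leave room for differences of up to about 1.29 times the WT level (Banf1). They assume a common spread for both genotypes, moderated over all rows, while mutants spread more in 8 of the 9 genes. Larger differences are therefore not excluded.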
